A study of Arabidopsis thaliana with 9 samples.

Results

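The comparison set both spliceosome mutants of this series, smd1b and prp39a, as 1 side against wild type, with equal weight for each mutant, and asked which genes and transcript isoforms moved the same way in both. All 9 of the 9 libraries of the series enter it, 6 from the mutants and 3 from wild type, and members were chosen by genotype label alone. Every library was made from the polyA RNA of entire Arabidopsis thaliana seedlings aged 14 days and grown on 1/2MS medium, in the accession Col-0 background. Wild type, the smd1b-3 allele and the prp39a-3 allele (SAIL_1249A03) each gave 3 independent biological replicates. Each mutant is known here from 1 allele, so the effect of the gene and of that line cannot be told apart. By its title, the study asks how the proteins act together when transgenes are silenced, and the data here describe endogenous transcripts.

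The spliceosome removes introns from pre-mRNA. Its U1 particle (U1 snRNP) pairs with the 5′ splice site at the start of an intron, and a ring of Sm proteins forms the core of U1 and of the other spliceosomal particles. SmD1 is a member of that ring and has the paralogs SMD1A and SMD1B in Arabidopsis. PRP39 is a U1-associated protein that, in yeast, helps U1 to bind weak 5′ splice sites, and its Arabidopsis genes are PRP39A and PRP39B. A change in either protein can alter which introns and exons are kept in a mature transcript as well as how much transcript is made.

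Levels are in TPM, a transcript's share of its library's transcripts scaled to a total of 1000000, which hides read depth. Between 20309 and 20680 genes were above 1 TPM in a library, and the 10 most abundant genes held 7.17% to 10.2% of the TPM. SMD1B was at 53.1, 53.6 and 50.3 TPM in wild type, listed at 0, 0.138 and 0 in smd1b, and at 49.97, 59.2 and 53.4 in prp39a. PRP39A was at 48.5, 55.1 and 49.98 TPM in wild type, at 53.6, 51.3 and 53.0 in smd1b, and at 5.44, 5.48 and 5.58 in prp39a. Each mutated gene was thus low in its own mutant only, and its pooled fall came from that mutant alone. The paralogs did not pass the test: SMD1A differed by 0.33 on the log2 scale (adjusted p = 0.274) and PRP39B by -0.04 (adjusted p = 0.821). The leaf genes LHCB1.1, LHCB1.2, RBCS1A and RCA and the root and floral marker lists held no called gene. Of the 11 root markers tested, 8 had means below wild type in both mutants and 0 above in both. Their median was -0.20 on the log2 scale, and 6663 of all 20585 tested genes were below in both. The 14 seed and embryo markers summed to 0.78 to 1.76 TPM in wild type, 2.75 to 5.77 TPM in smd1b and 1.37, 71.8 and 1.79 TPM in prp39a. Of these markers 5 were tested and 0 were called by limma (0 at an unadjusted p under 0.05). All 5 had means above wild type in both mutants (4348 of all 20585 tested genes did), with a median of 0.99 on the log2 scale. The part of these seed transcripts in other results was not tested. In whole seedlings, fewer cells of a type and less RNA per cell cannot be told apart.

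A gene was called in the pooled comparison at a Benjamini-Hochberg adjusted p under 0.05 in limma, over 20585 genes whose mean was 1 TPM or more. It was called in both mutants when, in addition, all 3 smd1b and all 3 prp39a values lay on the same side of all 3 wild-type values. The pooled test called 512 genes, which is 2.49% of those tested, with 234 higher (1.14%) and 278 lower (1.35%). Of these, 374 genes (1.82%) met the rule for both mutants, 161 higher (0.782%) and 213 lower (1.03%). The other 138 pooled calls overlapped wild type in at least 1 mutant. Most shared changes were small: the median was 0.52 on the log2 scale for genes that rose and -0.56 for genes that fell, and 39 genes (21 higher and 18 lower) changed by at least 2-fold. The same order of values without any test, each mutant wholly on 1 side of wild type, was seen in 1377 genes (6.69%).

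Fewer of these genes passed in the comparison of a single mutant. Of the 374 genes, 268 passed in smd1b alone against wild type, 243 passed in prp39a alone, and 137 passed in each (56 higher and 81 lower). Over all genes these own comparisons called 1365 genes in smd1b (6.63%) and 850 in prp39a (4.13%), and both rest on the same 3 wild-type libraries. The mutants also differed directly from each other in 4336 genes (21.1%). That test called 128 of the 374 genes, so the size of the change differed between the mutants there, and it was larger in smd1b for 73 of the 128. For the remaining 246 genes no difference in size was called, which does not show equal size. The last gene inside the pooled threshold was AT3G43430 (adjusted p = 0.0499944) and the first outside was MYBR1 (adjusted p = 0.0501055). With any single wild-type library left out, 83 to 127 genes met the rule. It was met by 179 genes without smd1b replicate 2, 153 without smd1b replicate 3 and 227 without prp39a replicate 1, and 59 of the 374 genes met it in each of the 9 fits that left out 1 library. When the scale was reset by size factors the rule called 445 genes with 236 higher and 209 lower, and without wild-type replicate 2 or replicate 3 it called 45 higher and 38 lower or 61 higher and 56 lower. The majority of lower genes thus depends on the scale and on those libraries.

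**Figure D1:**
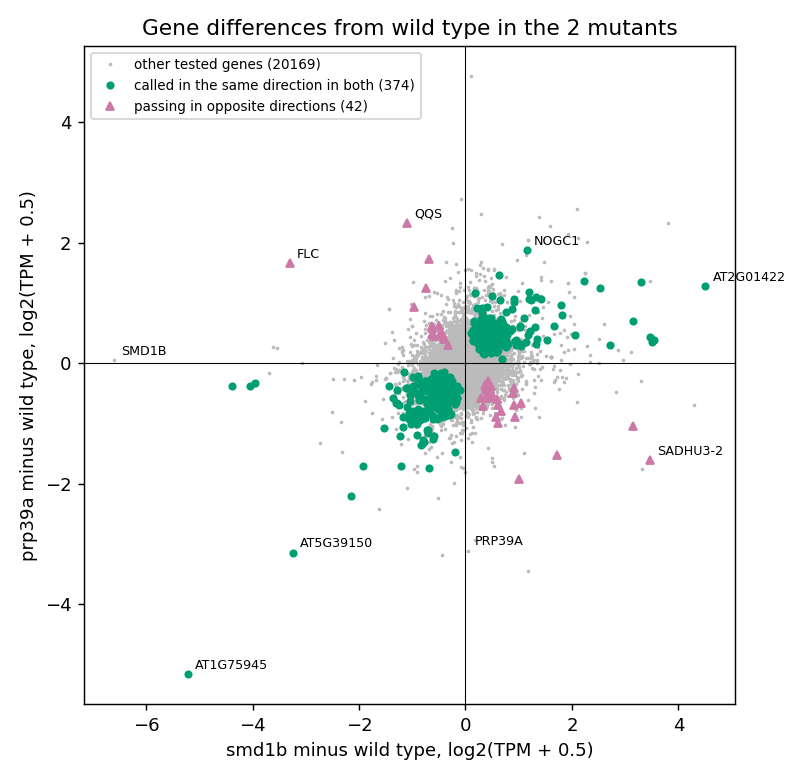
Log2 change from wild type of each tested gene in smd1b (horizontal axis) and in prp39a (vertical axis), on the log2(TPM + 0.5) scale, with 3 libraries per genotype. Green points are the 374 genes called in both mutants, triangles the 42 genes that passed in opposite directions, and both axes share the same 3 wild-type libraries, which alone spreads points along the diagonal.

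The largest shared fall was in AT1G75945, a short gene of unknown function that was nearly silent in both mutants. It lies on chromosome 1, 28515245 to 28515916 (TAIR10.1). Its level was 35.7, 30.4 and 31.4 TPM in wild type, 0.586, 0.143 and 0.498 in smd1b, and 0.583, 0.334 and 0.366 in prp39a. The mutant libraries stayed at 1.26% and 1.32% of the wild-type mean, far below every wild-type library. In the pooled comparison it fell by 5.19 on the log2 scale (SE 0.175, adjusted p = 1.38e-06). Its neighbour SKP1, a subunit of SCF ubiquitin ligases, had means of 230.0, 230.0 and 220.0 TPM in wild type, smd1b and prp39a and was not called (adjusted p = 0.808).

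AT5G39150, a germin-like protein gene of the cupin family on chromosome 5 (15669898 to 15670904), showed the next largest fall. It was at 5.28, 12.05 and 12.2 TPM in wild type, at 0.389, 0.695 and 0.532 in smd1b, and at 0.849, 0.828 and 0.247 in prp39a. All 6 mutant values lay below 1 TPM, and in the pooled comparison it fell by 3.19 on the log2 scale (SE 0.293, adjusted p = 0.00133). The gene sits in a cluster of near-identical germin-like genes, whose reads a quantifier can divide wrongly, so the level of any single copy is uncertain. Among these copies, all looked up after the values of AT5G39150 were seen, AT5G39180 fell by 2.17 (adjusted p = 0.0189), a call lost without wild-type replicate 2 or 3 (0.0823 to 0.0983). AT5G39120 had means of 19.9, 8.83 and 8.60 TPM in wild type, smd1b and prp39a without passing the test (adjusted p = 0.101). AT5G39110, AT5G39130 and AT5G39160 were not called, with mean levels of 2.07 to 9.41 TPM in the 3 genotypes.

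Several genes that plants switch on within minutes of touch, wounding or other stress fell in both mutants. Genes of this kind encode calcium sensors such as CML38 and the touch gene TCH2, and transcription regulators such as ERF6, WRKY40 and the zinc-finger protein SZF1. Of 22 genes in this list 20 were tested: 6 fell and 0 rose in the pooled test, and 5 met the rule for both mutants. The median change was -0.50 on the log2 scale (-0.33 in smd1b and -0.69 in prp39a), beside -0.03 over all tested genes. The means of 14 of the 20 genes were below wild type in both mutants and 0 were above in both, beside 6663 below and 4348 above over all 20585 tested genes. An unadjusted p under 0.05 was reached by 14 of the 20, against 3661 of all 20585. The list was chosen with earlier results of these data known, so these shares describe it and are not an independent test.

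CML38, a calmodulin-like protein, was at 40.9, 54.1 and 38.1 TPM in wild type, at 31.5, 23.3 and 26.9 in smd1b, and at 15.5, 10.7 and 12.5 in prp39a. The 3 groups did not overlap and prp39a was lowest. CML38 fell by 1.22 on the log2 scale (SE 0.148, adjusted p = 0.00573), and it held in every fit that left out 1 library. TCH2, a calmodulin-like sensor, was at 88.7, 104 and 95.5 TPM in wild type, at 77.3, 84.6 and 69.4 in smd1b, and at 53.9, 49.3 and 55.1 in prp39a. It also stepped down from wild type to smd1b to prp39a without overlap, by 0.59 in the pooled comparison (adjusted p = 0.00940; 0.0547 without wild-type replicate 2). SZF1 was at 38.6, 60.7 and 55.8 TPM in wild type, at 35.1, 33.5 and 32.3 in smd1b, and at 22.7, 21.3 and 21.2 in prp39a. Its 3 groups were likewise apart, with wild-type replicate 1 close to smd1b, and it fell by 0.90 (adjusted p = 0.0109; 0.0538 without wild-type replicate 3).

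ERF6, an ethylene-response transcription factor, was at 21.7, 32.9 and 30.7 TPM in wild type, at 16.0, 14.7 and 13.2 in smd1b, and at 16.9, 12.04 and 12.4 in prp39a. Here the mutants overlapped each other and not wild type. ERF6 fell by 0.96 on the log2 scale (adjusted p = 0.0161), a call lost without wild-type replicate 2 or 3 (to 0.0847). WRKY40, named after its values were seen, is a transcription factor of defence, and was at 15.5, 26.4 and 26.3 TPM in wild type, 11.4, 10.8 and 12.4 in smd1b, and 11.2, 8.90 and 8.46 in prp39a. It fell by 1.05 (adjusted p = 0.0180), a call that was also lost without wild-type replicate 2 or 3 (0.0762 to 0.0896). WRKY18, its close relative, passed the pooled test without meeting the rule for both mutants, by -0.52 (adjusted p = 0.0338), a call lost without any of 6 single libraries (to 0.119).

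The count for these stress genes depended on single wild-type libraries. Wild-type replicate 1 was the lowest wild-type library in 18 of the 20 genes (90%), against 41.2% of all tested genes. Without it 13 of the list's genes fell in the pooled test, and without replicate 2 or replicate 3 only 2 fell. The list summed to 1107 to 1499 TPM over the wild-type libraries, 920 to 1068 over smd1b and 617 to 811 over prp39a. The sums of the 3 genotypes thus did not overlap, while the calls of single genes rested on few libraries. Whether handling at harvest moved these genes was not tested.

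**Figure D2:**
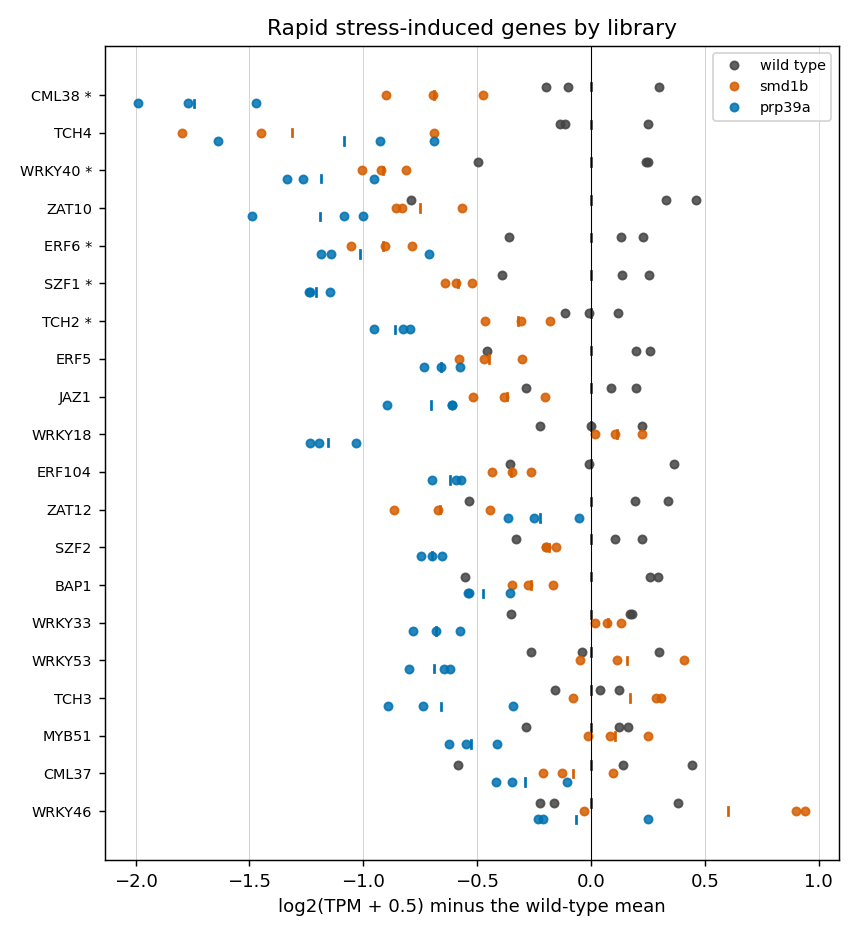
Level of the 20 tested rapid stress-induced genes in each of the 9 libraries, as log2(TPM + 0.5) minus the wild-type mean of the gene, with points coloured by genotype (3 libraries each), short bars for group means and an asterisk for genes called in both mutants. In CML38, TCH2 and SZF1 all 3 prp39a values lie below all 3 smd1b values, which lie below all 3 wild-type values.

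Sequences before the start of genes in this list were read for known stress motifs, since members that fall together may carry shared letters. The windows are the 200 bases upstream of the annotated gene start, 5′ to 3′ on the gene's strand, from the RefSeq sequence of TAIR10.1. TCH2 is shown for the rapid stress response element core CGCGTT and SZF1 for the W-box core TTGAC, the element that WRKY factors bind. Capitals mark matches on either strand, and in TCH2 each capital run AACGCGTT holds 2 overlapping matches, 1 per strand.
TCH2, chr5:14999620-14999819, minus strand: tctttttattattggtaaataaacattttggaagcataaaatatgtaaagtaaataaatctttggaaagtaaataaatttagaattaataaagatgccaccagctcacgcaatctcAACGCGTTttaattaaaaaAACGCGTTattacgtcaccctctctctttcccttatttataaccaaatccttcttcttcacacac
SZF1, chr3:20776020-20776219, plus strand: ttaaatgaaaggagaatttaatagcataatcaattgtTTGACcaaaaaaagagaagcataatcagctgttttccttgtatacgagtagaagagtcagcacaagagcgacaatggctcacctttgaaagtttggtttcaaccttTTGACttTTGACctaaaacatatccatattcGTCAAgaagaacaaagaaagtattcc
TCH2 held 4 matches of the first core and none of the second, and SZF1 held 4 of the second and none of the first. Of the other list genes called in both mutants, CML38 and ERF6 held 0 matches of either core. WRKY40 held 1 W-box core and 0 of the first core. The core CGCGTT was found in 492 of 20368 such windows (2.42%), in 11 of the 213 genes lower in both mutants (5.16%), in 1 of the 161 genes higher in both (0.621%) and in 2 of the 20 stress genes. The W-box core was found in 39.1% of all windows, in 41.3% of the lower and 38.5% of the higher genes, and in 10 of the 20 stress genes. These are counts of letters, not of bound sites.

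Several other genes of hormone, phosphate and transport responses were among the 12 largest falls. PHI-1, a phosphate-induced cell-wall protein, was at 70.3, 89.6 and 48.7 TPM in wild type, 26.6, 20.2 and 9.77 in smd1b, and 30.9, 16.9 and 15.9 in prp39a. The mutants overlapped each other and stayed below wild type, and the gene fell by 1.82 on the log2 scale (SE 0.330, adjusted p = 0.0285; lost without any of 5 single libraries, to 0.131). DIC2, a mitochondrial dicarboxylate carrier, was at 17.3, 34.8 and 33.5 TPM in wild type, 13.5, 10.8 and 10.4 in smd1b, and 9.01, 7.01 and 8.05 in prp39a. It fell by 1.46 (adjusted p = 0.0121; to 0.0612 without wild-type replicate 2 or 3). JAZ7, a JAZ-family repressor of jasmonate signalling, was at 8.49, 11.0 and 7.89 TPM in wild type, 4.91, 4.53 and 1.94 in smd1b, and 3.77, 3.95 and 3.17 in prp39a. It fell by 1.22 (adjusted p = 0.0363), a call lost without any of 7 single libraries (to 0.152).

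The remaining large falls were steadier between libraries. AT4G22212, a defensin-like peptide gene, was at 37.3, 31.7 and 26.2 TPM in wild type, 15.1, 13.4 and 12.5 in smd1b, and 17.3, 13.2 and 14.5 in prp39a, and it fell by 1.11 on the log2 scale (adjusted p = 0.00348). AT4G13575, of unknown function, fell by 1.31 (SE 0.140, adjusted p = 0.00322) from 14.6 TPM in wild type to 4.74 in smd1b and 6.62 in prp39a. AT1G07135, a glycine-rich protein gene, was at 44.5, 69.7 and 57.6 TPM in wild type, 34.0, 32.2 and 27.7 in smd1b, and 26.4, 20.1 and 19.4 in prp39a, and it fell by 1.098 (adjusted p = 0.00943). All 3 kept their calls in every fit that left out 1 library, and in each the wild-type libraries lay above all mutant libraries.

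AT4G02800, AT4G02820 and AT4G02850 met the rule but lie near SMD1B on chromosome 4 (SMD1B at 1264518 to 1266486), and in the pooled comparison AT4G02800 fell by 2.38, AT4G02820 fell by 2.14 and AT4G02850 fell by 2.22, mainly through smd1b. AT4G02800 was at 11.3, 8.68 and 10.4 TPM in wild type, 0.018, 0 and 0 in smd1b, and 7.24, 7.99 and 7.58 in prp39a. The smd1b libraries held almost no transcript and the prp39a libraries lay only just below wild type. In prp39a alone the 3 genes did not pass the test (adjusted p from 0.0956 to 0.163). AT4G02830, which lies between AT4G02820 and SMD1B, was likewise lost in smd1b, with means of 6.15 TPM in wild type, 0.00962 in smd1b and 5.50 in prp39a, but it overlapped wild type in prp39a and did not meet the rule. EMB3129 and AT4G02860, on the outer sides of these genes, were at 104% and 95.4% of wild type in smd1b. Whether the smd1b-3 allele itself affects these neighbours was not tested.

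**Figure D3:**
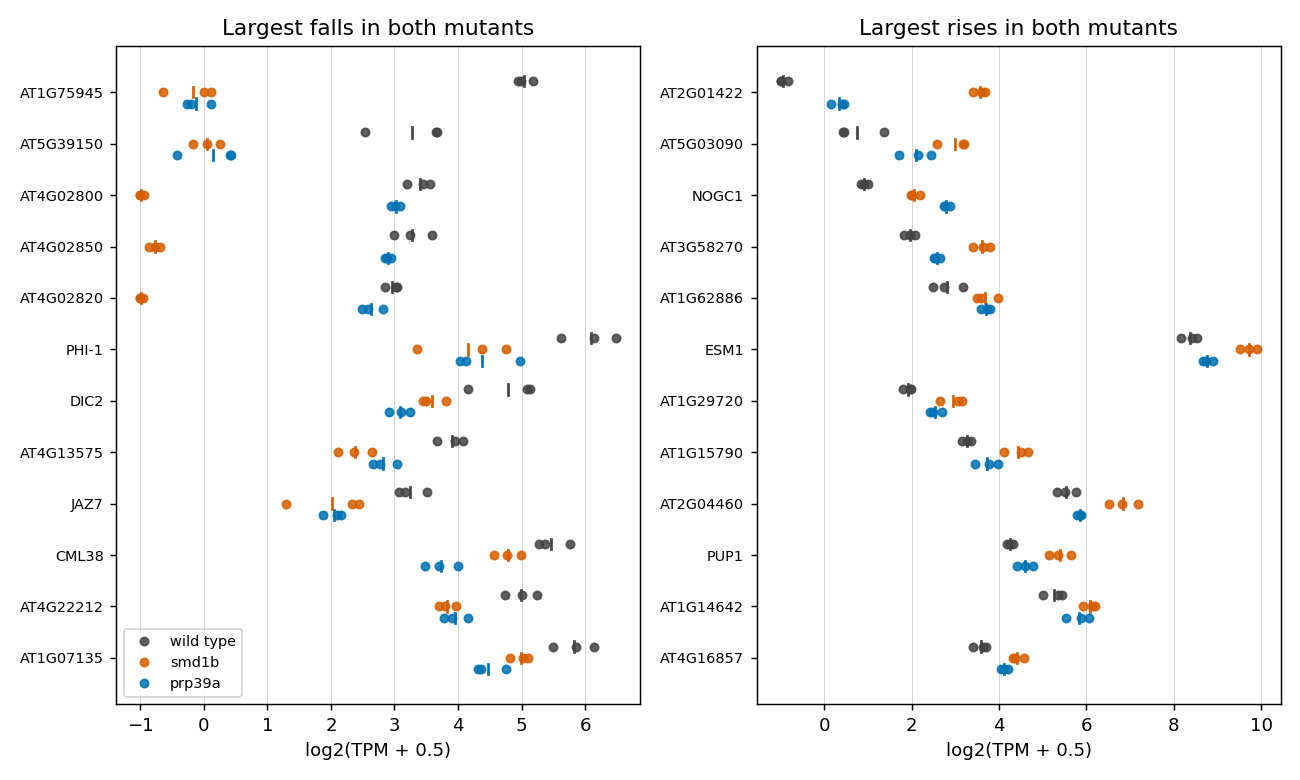
Level in each library, as log2(TPM + 0.5), of the 12 largest falls (left) and the 12 largest rises (right) among genes called in both mutants, with points coloured by genotype and short bars for group means. In AT1G75945 and AT5G39150 both mutants lie at the left end of the axis, while in AT4G02800, AT4G02820 and AT4G02850 only smd1b does.

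Among the 12 largest shared rises the top one was in a gene near 0 in wild type. By the direct test 6 of the 12 were further up in smd1b and 1 was further up in prp39a. AT2G01422, a non-coding RNA gene, was listed at 0, 0.0633 and 0 TPM in wild type, and was at 10.1, 11.5 and 12.4 in smd1b and at 0.821, 0.620 and 0.862 in prp39a. The rise was 2.89 on the log2 scale (adjusted p = 5.60e-06) and was far larger in smd1b. AT2G01422 passed the limit of 5 TPM for naming only through smd1b, with means of 11.3 TPM there and 0.768 TPM in prp39a. NOGC1, annotated as a flavin-containing monooxygenase, was at 1.29, 1.37 and 1.52 TPM in wild type, 3.48, 3.52 and 4.08 in smd1b, and 6.30, 6.85 and 6.21 in prp39a. It rose by 1.51 (adjusted p = 7.19e-05), with prp39a above smd1b. AT3G58270, a TRAF-domain protein gene, was at 3.03, 3.70 and 3.41 TPM in wild type, 10.1, 11.9 and 13.5 in smd1b, and 5.19, 5.82 and 5.32 in prp39a, a rise of 1.14 (adjusted p = 0.00121). None of these 3 calls was lost when 1 library was left out.

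ESM1, PUP1 and AT4G16857 also rose. ESM1, which steers glucosinolate breakdown towards isothiocyanates, was at 369, 287 and 339.6 TPM in wild type, 737, 953 and 844 in smd1b, and 409, 473 and 423 in prp39a. It rose by 0.87 on the log2 scale (adjusted p = 0.00556), and the prp39a libraries, though all above wild type, did not pass alone (adjusted p = 0.0995). PUP1, a purine permease that carries adenine and cytokinins, was at 17.55, 19.4 and 18.7 TPM in wild type, 35.01, 49.6 and 40.5 in smd1b, and 20.7, 26.9 and 23.8 in prp39a. It rose by 0.74 (adjusted p = 0.0160), a call lost without any single wild-type library (to 0.0774). AT4G16857, an immune receptor gene of the TIR-NBS-LRR class, was at 12.5, 10.1 and 11.9 TPM in wild type, 20.1, 23.1 and 19.6 in smd1b, and 16.7, 17.9 and 16.1 in prp39a, and rose by 0.69 (adjusted p = 0.00582). NLR genes have similar copies, so its level is uncertain to that extent.

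The other 6 of the 12 largest rises were less secure. AT5G03090 rose by 1.80 (lost without wild-type replicate 2 or 3, adjusted p to 0.0612) and AT1G62886 by 0.89 (lost without any of 3 libraries, to 0.106). AT1G29720, a receptor kinase gene, rose by 0.83 (lost without any wild-type library, to 0.0716). AT1G15790 and the pseudogene AT2G04460 each rose by 0.82, lost without 5 and 3 single libraries (to 0.108 and 0.104). AT1G14642 rose by 0.69, lost without 7 single libraries (to 0.117). Pseudogenes made up 6.21% of the 161 higher genes (10 genes) and 1.25% of all tested genes. Single-exon genes made up 25.4% of the 213 lower genes, 10.6% of the higher genes and 15.2% of all tested genes.

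A smaller set of genes also passed a stricter test. When all 6 mutant libraries were taken as 1 group, so that any difference between smd1b and prp39a counts as spread, 24 genes passed, all of them among the 374 (10 higher and 14 lower), and 21 of them also met the rule in every fit that left out 1 library. The direct test called NOGC1 and PnsL4 as different between the mutants and did not call the other 22 of the 24. Since the 1-group test favours genes whose mutants are alike, this was built into the choice and does not show equal size. The set holds AT1G75945, AT5G39150, NOGC1, AT4G13575 and AT4G22212 from above. The members named next were chosen after their values were seen.

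AT4G27280, an EF-hand calcium-binding protein gene, was at 37.6, 59.0 and 52.2 TPM in wild type, 23.7, 25.0 and 22.3 in smd1b, and 25.1, 24.8 and 21.9 in prp39a. The mutants overlapped fully, and the gene fell by 1.02 on the log2 scale. PnsL4, a subunit of the chloroplast NDH complex that moves electrons around photosystem I, was at 50.2, 45.0 and 47.2 TPM in wild type, 28.3, 32.8 and 31.4 in smd1b, and 26.8, 26.4 and 23.63 in prp39a, and it fell by 0.75, with prp39a below smd1b. MYB77, a transcription factor of auxin responses, fell by 0.89, a call lost without wild-type replicate 2 or 3 (adjusted p to 0.0589). AT4G33420, a peroxidase gene, fell by 0.61 from 25.6 to 28.6 TPM in wild type to 15.9 to 19.3 TPM over the 6 mutant libraries.

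Among the genes of this set that rose, AT5G56370, an F-box protein gene, was at 2.12, 1.79 and 1.76 TPM in wild type, 4.09, 5.54 and 5.24 in smd1b, and 4.81, 4.27 and 4.47 in prp39a, a rise of 1.13 on the log2 scale. MYB23, a transcription factor that starts trichomes, was at 7.04, 8.49 and 6.72 TPM in wild type, 11.4, 11.7 and 11.8 in smd1b, and 12.2, 13.2 and 11.2 in prp39a, a rise of 0.65. Its downstream partner in epidermal cell fate, GL2, was at 6.44, 7.22 and 6.58 TPM in wild type, 10.1, 7.57 and 9.60 in smd1b, and 14.2, 10.7 and 10.3 in prp39a. GL2 rose by 0.57 (adjusted p = 0.0484), a call lost without any of 8 single libraries (to 0.180). GL2 was the 1 gene called among 11 guard cell and trichome markers, whose median change was -0.10 on the log2 scale. The means of 5 of the 11 were below wild type in both mutants and 1 was above in both. Over all 20585 tested genes 6663 were below and 4348 above.

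Genes of the splicing and RNA machinery changed little in total level. Of 23 genes of the U1 snRNP and Sm core, 0 rose and 2 fell in the pooled test, and these were the mutated genes SMD1B and PRP39A, with 6 at an unadjusted p under 0.05. In limma 0 genes were called among 20 SR splicing factors, 24 factors of U2, U5 and the tri-snRNP and 14 hnRNP-type regulators, with 4, 2 and 1 at an unadjusted p under 0.05. Of all 20585 tested genes 3661 had such a p. Among 26 RNA decay genes CAF1A, a deadenylase subunit, was at 40.8% of wild type in prp39a and 52.1% in smd1b, and fell by 1.03 in the pooled test (adjusted p = 0.0380). It overlapped wild type in smd1b, and the call was lost without any of 7 single libraries (to 0.147).

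Of 24 tested genes of small RNA silencing, RDR1 alone was called in both mutants. RDR1, an RNA-dependent RNA polymerase that copies viral and other RNA, was at 7.39, 8.90 and 9.16 TPM in wild type, 12.4, 14.0 and 12.6 in smd1b, and 9.80, 9.85 and 10.3 in prp39a. It rose by 0.41 on the log2 scale (adjusted p = 0.0371), with prp39a just above wild type, and the call was lost without any of 8 single libraries (to 0.117). With the call on RDR1 the list had 5 genes at an unadjusted p under 0.05, beside 3661 of all 20585 tested genes.

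In the circadian clock list (18 genes), CCA1, a morning-phased transcription factor, passed the pooled test without meeting the rule for both mutants. It was at 8.69, 7.05 and 7.59 TPM in wild type, 3.61, 3.495 and 3.74 in smd1b, and 7.23, 4.69 and 4.71 in prp39a. All smd1b values and 2 of the prp39a values lay below wild type, and CCA1 fell by 0.74 (adjusted p = 0.0289; lost without any of 5 single libraries, to 0.129). In the heat shock list (14 genes tested) HSP70-4 fell by 0.60 (adjusted p = 0.0189; lost without wild-type replicate 2 or smd1b replicate 3, to 0.0777) and HSP17.8 by 0.92 (adjusted p = 0.0462; lost without any of 8 single libraries, to 0.167; also lost with size factors). Both are chaperone genes and both met the rule for both mutants, as lower genes, beside 1.03% of all tested genes. Of the 14 heat shock genes 6 had means below wild type in both mutants and 2 above in both, with 5 at an unadjusted p under 0.05 in limma. In the glucosinolate list (19 genes) MYB28 and SOT16, a regulator and an enzyme of synthesis, passed the pooled test by -0.33 and -0.31. The list's median was -0.31 (-0.05 in smd1b and -0.48 in prp39a), with 4 genes at an unadjusted p under 0.05. The means of 10 of the 19 were below wild type in both mutants and 0 were above in both. Over all 20585 tested genes 6663 were below and 4348 above, and 3661 had such a p. MYB28, whose call was also lost with size factors, was at 112% of wild type in smd1b and 55.6% in prp39a, and SOT16 at 91.3% and 71.2%, and both calls were lost without most single libraries (to 0.151 and 0.165).

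The remaining lists held no gene called in both mutants. In limma 0 genes were called among 22 immune, 14 unfolded-protein, 17 cold, drought and abscisic acid, 23 photosynthesis and 10 anthocyanin genes and 11 root and 3 floral markers, with 1, 0, 3, 1, 3, 1 and 0 at an unadjusted p under 0.05. The cold, drought and abscisic acid list had a median of 0.29 on the log2 scale, from 0.01 in smd1b and 0.62 in prp39a. The means of 9 of its 17 genes were above wild type in both mutants, beside 4348 of all 20585. In the flowering list (21 genes) and the DNA methylation list (16 genes), the pooled call fell on FLC and QQS, which moved in opposite directions. An unadjusted p under 0.05 was reached by 11 and 5 genes of these lists, beside 3661 of all 20585. The means of 5 flowering genes were below wild type in both mutants and 4 were above in both.

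The mutants went opposite ways in 42 genes that passed in each of them, 27 higher in smd1b and 15 higher in prp39a, and 4 of these were pooled calls all the same. FLC, the repressor of flowering, was at 7.39, 8.53 and 7.03 TPM in wild type, 0.230, 0.512 and 0.258 in smd1b, and 22.7, 32.0 and 21.8 in prp39a. QQS, a gene of starch metabolism that lies in repeats and varies in DNA methylation, was at 19.1, 17.57 and 17.3 TPM in wild type, 6.03, 9.91 and 8.98 in smd1b, and 98.4, 91.1 and 87.9 in prp39a. Both were low in smd1b and high in prp39a, with no overlap with wild type. SADHU3-2, a retroelement of the Sadhu family, was at 3.06, 3.64 and 2.94 TPM in wild type, 42.6, 40.4 and 38.5 in smd1b, and 0.574, 0.969 and 0.645 in prp39a. The non-coding RNA gene AT4G04223 showed that order too, with 12.2, 14.5 and 12.4 TPM in wild type, 118, 120.6 and 117 in smd1b, and 7.13, 6.23 and 4.96 in prp39a. In these genes the pooled value averages opposite changes.

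Isoform shares, the part of a gene's TPM that 1 isoform holds, also moved the same way in both mutants. Of 21990 isoforms tested in 8587 genes, the pooled test called 1145 (5.21%). The rule for both mutants was met by 789 isoforms (3.59%), 412 with a higher and 377 with a lower share, in 552 genes (6.43% of genes with a tested isoform). The rule was applied to the tested log2 ratio of an isoform to the gene's other isoforms, and for 31 of the 789 the plain shares overlapped or tied with wild type. The isoforms of a gene mirror each other, so 1 event can be counted more than once. The median shift was 12.02 percentage points, 9.62 in smd1b and 13.4 in prp39a, and it was over 10 points in 483 isoforms and over 20 points in 138. The shift was larger in prp39a for 539 of the 789 and larger in smd1b for 250. The mutants differed from each other in 264 of the 789 by the direct test, which called 2978 isoforms in all (13.5%), and prp39a had the larger shift in 219 of the 264. Opposite shifts that passed in each mutant were seen in 20 isoforms.

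Of the 552 genes 30 were also called in both mutants in total TPM. Over all 20585 tested genes 374 (1.82%) were called by level. The isoform that held the most TPM changed in both mutants in 233 of the 8587 genes with a tested isoform, called or not. In 49 of these the wild-type main isoform was called lower in both mutants, and in 40 of the 49 both mutants moved to the same new isoform. By their own tests, 243 of the 789 isoforms passed in smd1b, 647 in prp39a and 158 in each. The count was 303 to 376 without any single wild-type library and 471 without prp39a replicate 1. Of the 789, 196 (100 higher and 96 lower) met the rule in every fit that left out 1 library.

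EMB2219, an organelle mTERF protein gene, SQE2, a squalene epoxidase of sterol synthesis, and BGLU8, a beta-glucosidase, were among the largest shared shifts. In SQE2 the isoform AT2G22830_P1 held 36.5%, 53.8% and 48.5% of TPM in wild type, 5.65%, 11.4% and 31.5% in smd1b, and 17.1%, 12.1% and 13.2% in prp39a. The mutants overlapped and stayed below wild type (adjusted p = 0.0311; lost without any of 7 single libraries, to 0.121). In BGLU8 the isoform AT3G62750_P2 held 58.9%, 63.1% and 60.7% in wild type, 34.7%, 37.6% and 43.1% in smd1b, and 16.1%, 12.9% and 16.7% in prp39a. This was a stepwise fall, without overlap, that no left-out library ended (adjusted p = 0.00148). In EMB2219 the isoform AT2G21710_P1 went from 69.3% to 36.2% in smd1b and 29.95% in prp39a (adjusted p = 0.0314; lost without any of 5 single libraries, to 0.121).

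AT5G26180_P2, an isoform of a methyltransferase gene, held 44.0%, 32.1% and 39.1% in wild type, 10.4%, 19.1% and 6.64% in smd1b, and 3.69%, 1.69% and 1.19% in prp39a, and no left-out library ended the call (adjusted p = 0.00503). AT4G22840_P1, AT5G66030_P1 of the Golgi protein gene ATGRIP, AT5G65685.1 and AT2G24690_P2 had lower shares in both mutants and much lower ones in prp39a. Their means in that order were 79.6%, 59.9%, 48.3% and 38.1% in wild type and 68.6%, 44.6%, 27.4% and 14.7% in smd1b. In prp39a they were 24.0%, 14.4%, 1.01% and about 0. In smd1b alone AT2G24690_P2 passed the limma test (adjusted p = 0.0119), and the others did not (0.249, 0.183 and 0.146). AT4G37095_ID1 fell further in smd1b, from 95.5% to 53.0%, with 74.3% in prp39a (adjusted p = 0.0144; lost without wild-type replicate 1 or 3, to 0.0659). AT3G55920_ID17 is an smd1b change and not a shared one: it held 100% in every smd1b library, was listed at 0 in wild type and in 2 prp39a libraries, and was at 0.379% in the other. It met the rule only on the log2 ratio, where the gene's other isoforms enter, and prp39a alone did not pass (adjusted p = 0.445).

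**Figure D4:**
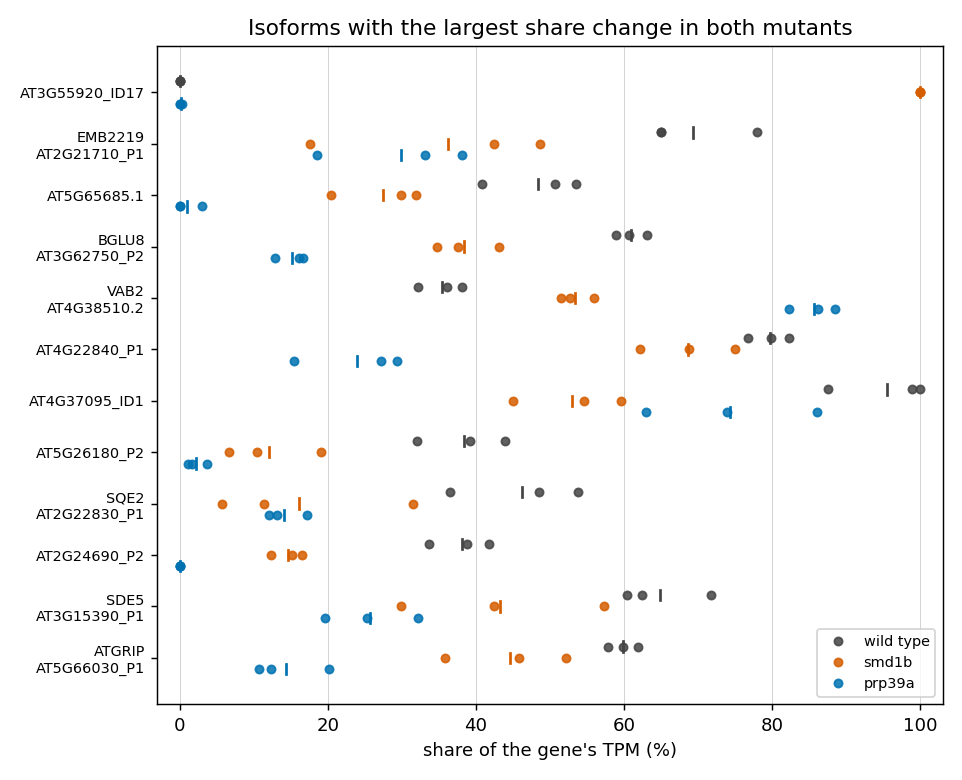
Share of the gene's TPM (percent) held by each of the 12 isoforms with the largest shifts among those that met the rule, per library and coloured by genotype (3 libraries each), with short bars for group means. VAB2 isoform AT4G38510.2 rises from 32.2% to 38.1% in wild type to 82.3% to 88.5% in prp39a, with smd1b between them, and most other isoforms fall.

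SDE5, an export-type protein needed for transgene silencing, was called by isoform and not by level. It was 1 of 16 genes of the small RNA silencing list with a tested isoform, beside 6.43% of all such genes. Its mean level was 6.07 TPM, so small shares of it are low levels. Its isoform AT3G15390_P1 held 62.4%, 60.4% and 71.7% of TPM in wild type, 42.5%, 29.8% and 57.2% in smd1b, and 25.3%, 19.6% and 32.2% in prp39a. The isoform AT3G15390_P3 was listed at 0 in all wild-type libraries and held 12.9%, 27.8% and 6.37% in smd1b and 34.4%, 43.5% and 14.2% in prp39a. So SDE5 transcripts shifted from the first isoform towards one that wild type did not list (adjusted p = 0.0274 and 0.0288, each lost without any of 5 single libraries, to 0.104). In smd1b alone neither isoform passed the limma test (adjusted p = 0.156 and 0.140), while both passed in prp39a. What the isoforms encode is not given in the files.

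Some splicing factors with no call in total level had calls in isoform shares. Isoforms met the rule in 5 of 13 genes of the U1 and Sm list with a tested isoform, PRP39A included, beside 6.43% of all such genes. They met it in 1 of 19 SR genes, 1 of 10 genes of the U2, U5 and tri-snRNP list and 0 of 11 hnRNP-type genes. U1-70K, the U1 protein that contacts SR proteins, showed the clearest shift: AT3G50670_s2 held 25.1%, 26.2% and 24.9% in wild type, 4.59%, 7.95% and 7.53% in smd1b, and 3.999%, 3.03% and 6.31% in prp39a. AT3G50670_P1 rose in parallel from 58.2%, 59.0% and 58.4% to 89.4%, 83.2% and 86.6% in smd1b and 72.4%, 74.8% and 71.4% in prp39a. Both mutants lay well apart from wild type, and no left-out library ended either call (adjusted p = 0.00262 for s2 and 0.00387 for P1).

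The SMD1B paralog SMD1A shifted too: AT3G07590_s2 held 26.7%, 25.4% and 28.1% in wild type, 15.7%, 19.0% and 16.6% in smd1b, and 17.0%, 13.9% and 16.3% in prp39a (adjusted p = 0.0260; lost without any of 5 single libraries, to 0.0970). LUC7RL, a LUC7-related U1 protein, had AT5G51410_P2 at 40.8%, 27.9% and 19.4% as means of wild type, smd1b and prp39a, and PRP40A, another U1-associated factor, had AT1G44910_ID2 at 11.3%, 25.3% and 21.7% (adjusted p = 0.0328 and 0.0424, lost without any of 6 and 7 single libraries). The fifth gene was PRP39A itself, which carries the mutation in prp39a. Its isoform AT1G04080_ID2 had means of 14.1% in wild type and 10.6% in smd1b and was listed at 0 in prp39a. The pooled call (adjusted p = 0.0356) was lost without any of 8 single libraries (to 0.122) and with a pseudocount of 1 (0.232). In STA1, a tri-snRNP protein, AT4G03430_P2 went from 17.41%, 18.1% and 25.3% to 3.37%, 8.41% and 5.46% in smd1b and 2.76%, 7.005% and 3.44% in prp39a (adjusted p = 0.0106; 0.0539 without wild-type replicate 3).

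In the RNA decay list isoforms met the rule in 2 of 10 genes with a tested isoform, XRN3 and VCS, beside 6.43% of all such genes. In XRN3, a nuclear exonuclease that limits transgene silencing, AT1G75660_P1 held 100%, 99.2% and 95.3% in wild type, 91.0%, 89.3% and 84.1% in smd1b, and 87.7%, 90.5% and 93.5% in prp39a (adjusted p = 0.0206; lost without wild-type replicate 1 or 2, to 0.0903). In VCS, the scaffold of mRNA decapping, AT3G13300_P1 rose from 57.2%, 62.1% and 60.7% to 71.4%, 74.1% and 72.4% in smd1b and 78.4%, 73.4% and 80.2% in prp39a (adjusted p = 0.0158; lost without any wild-type library, to 0.0715). The shifts in XRN3 were small and those in VCS moderate. Other list members with an isoform that met the rule were the SR protein gene RS2Z33, the DNA demethylase gene DME, the immune receptor gene RPP4 and the calmodulin-like gene TCH3 (each lost without 6 to 9 single libraries) and the clock gene PRR7. Each was the only such gene of its list. The SR, DNA methylation, immune, rapid stress and clock lists had 19, 8, 2, 4 and 14 genes with a tested isoform. In PRR7, isoform AT5G02810_c2 had means of 8.90% in wild type and 6.998% in smd1b and was at about 0 in prp39a. It did not pass the limma test in smd1b alone (adjusted p = 0.404).

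For 7 pairs of isoforms the RefSeq annotation gives both structures, so the intron or exon that differs can be named. Some of these genes have further isoforms, so a gained share need not come from the paired isoform. Of the 789 isoforms 87 have names of the annotation's form and 86 were found there; 6 genes had 2 such isoforms, and VAB2 was added with its second isoform, all chosen after the values were seen. The 5′ splice sites at the alternative introns are shown because the U1 particle reads them. Each line has 10 exon and 10 intron bases, 5′ to 3′ on the gene's strand, from TAIR10.1 (RefSeq), and capitals mark the last 3 exon bases and the first 6 intron bases.
CGL1, intron chr4:17931922-17931995, minus strand, retained in AT4G38240.2: tgcaaaaCATGTACTTctcc
AT3G55070, intron chr3:20410294-20410435, plus strand, retained in AT3G55070.2: tgaaaacTCCGTAACGatca
AT5G01010, intron chr5:1460-1571, minus strand, retained in AT5G01010.3: cttcaaaAAGGTAGGGcgat
VAB2, intron after the skipped exon, chr4:18014797-18014902, minus strand: ctaaaatTGGGTAAAAtgga
VAB2, intron before the skipped exon, chr4:18014976-18015065, minus strand: gaagaaaGAGGTACGTacac
AT3G17920, intron after the skipped exon, chr3:6137889-6137982, plus strand: acgcttaAAGGTTGACgtta
Set against AGGTAAGT, the most frequent base at each of the last 2 exon and first 6 intron positions of the annotated introns, these sites matched at 5, 4, 6, 5, 7 and 4 of 8 positions in the order printed. Over 134479 annotated introns the median was 6 of 8, and 44.3% had 5 or fewer. With so few pairs this describes these introns only.

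In 3 of the pairs the isoform that gained share retains an intron. CGL1, the enzyme that starts complex N-glycans, had its isoform with a 74-base retained intron, which lies beyond the end of the coding region, at 22.2%, 19.1% and 24.2% in wild type. Its share in CGL1 was 40.8%, 41.2% and 35.4% in smd1b and averaged 37.97% in prp39a (adjusted p = 0.0118; 0.0626 without wild-type replicate 2). AT5G01010.3, with a 112-base retained intron, held 7.29%, 6.93% and 5.83% in wild type, 16.3%, 10.1% and 10.6% in smd1b, and 20.9% on average in prp39a (adjusted p = 0.0101; 0.0520 without wild-type replicate 3). AT3G55070.2, with a 142-base retained intron, went from 10.2% to 13.0% in smd1b and 25.5% in prp39a (adjusted p = 0.0307; lost without any of 7 single libraries, to 0.113). In all 3 the retained form was higher in every mutant library than in any wild-type library. In smd1b alone AT5G01010.3 and AT3G55070.2 did not pass the limma test (adjusted p = 0.0938 and 0.442), while both passed in prp39a. The retained form of CGL1 passed in each mutant.

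In 2 pairs the isoform that gained share skips an exon. VAB2 encodes the B subunit of the vacuolar proton pump, and AT4G38510.2 lacks a 73-base exon of the leader (chromosome 4, 18014903 to 18014975) that AT4G38510.3 includes. The skipping isoform held 38.1%, 32.2% and 36.1% in wild type, 56.0%, 52.7% and 51.5% in smd1b, and 86.2%, 88.5% and 82.3% in prp39a. The 3 genotypes were apart, and no left-out library ended the call (adjusted p = 0.00148). The isoform with the exon went from 39.3% to 34.3% in smd1b and 3.85% in prp39a, and in smd1b it overlapped wild type. In smd1b the mean of the skipping isoform went from 35.5% to 53.4%, a larger gain than that loss. AT3G17920.1 lacks a 96-base exon (chromosome 3, 6137793 to 6137888) and went from 84.5% to 89.7% in smd1b and 96.3% in prp39a (adjusted p = 0.0110; to 0.0550 without wild-type replicate 2 or 3). In smd1b alone AT3G17920.1 did not pass the limma test (adjusted p = 0.162).

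In the last 2 pairs the isoforms differ in their start. AT3G02065.3 begins inside the 64-base first intron of AT3G02065.2 and rose from 13.5% to 41.9% in smd1b and 28.6% in prp39a (adjusted p = 0.0222; lost without wild-type replicate 1 or 3, to 0.0925). JMJ18, a histone demethylase of H3K4, had AT1G30810.1, which begins within the 220-base first intron of AT1G30810.2, at 58.8%, 83.2% and 74.96% in wild type, smd1b and prp39a (adjusted p = 0.0403; lost without any of 7 single libraries, to 0.149). Both shifts were larger in smd1b, by their means, and in prp39a alone neither passed the limma test (adjusted p = 0.0611 and 0.117). The means moved further in prp39a in the pairs of VAB2, AT3G17920, AT3G55070 and AT5G01010, and further in smd1b in CGL1.

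**Figure D5:**
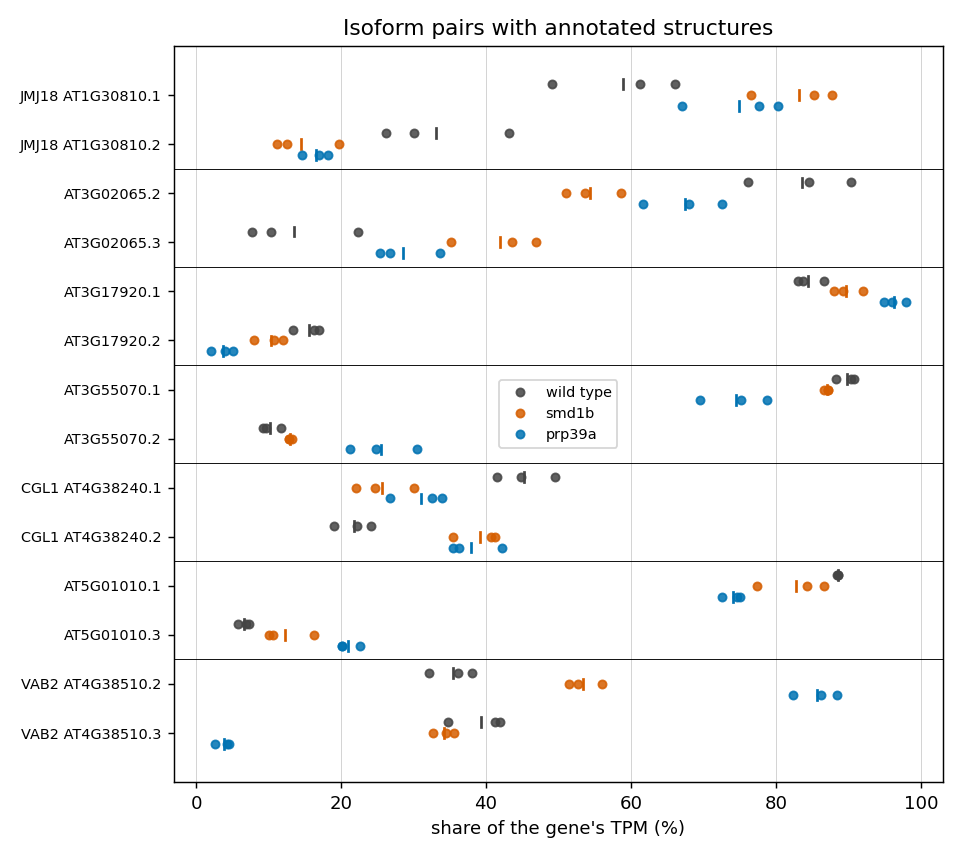
Share of the gene's TPM (percent) held by the isoforms of the 7 pairs in each library, coloured by genotype (3 libraries each), with short bars for group means. In VAB2 the exon-skipping isoform rises from about the level of the exon-including one in wild type to 82.3% to 88.5% in prp39a, with smd1b at 51.5% to 56.0%.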

How the data were processed

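The authors deposited TPM per transcript isoform for whole seedlings of 3 genotypes with 3 libraries each. The column names of the deposited table carry the name kallisto, with version and annotation not given in the sources used here. The submitters' processing notes name TAIR10, Trimmomatic, TopHat2, featureCounts and DESeq2 without roles. The table holds 82190 isoforms of 34212 genes and 15 columns of values, of which 9 matched the samples by name and 6 were not used. TPM keep no depth, so no counting interval can be given, and 0 means only that a transcript is listed at 0.

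Isoform TPM were summed per gene and tested as log2(TPM + 0.5) for genes whose mean was 1 TPM or more. Isoforms were tested as log2 of (isoform + 0.5) over (other isoforms of the gene + 0.5), with a mean share of 0.05 to 0.95. The pseudocount understates fold changes of low genes. A limma 3.58.1 fit in R 4.3.3 (trend on) to all 9 libraries gave the contrast of the mean of both mutant means with wild type, each mutant with wild type, and prp39a with smd1b. Tests were two-sided with Benjamini-Hochberg adjustment over all features. The code was tested on simulated data.

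The members and the gene lists were chosen with earlier results of these data known. Named genes are the mutated genes and paralogs, the 12 largest rises and 12 largest falls called in both mutants with at least 5 TPM, up to 4 called members per list, 6 genes each way that moved oppositely, and the 12 largest isoform shifts in genes of at least 5 TPM. Alternatives were other pseudocounts and filters, size factors, no trend, all mutants as 1 group, a replicate block and leaving out each library. Transcript structures, upstream windows and splice sites came from RefSeq on TAIR10.1, with transcripts matched by name.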

Additional observations from a re-analysis of the deposited data

Results flagged for a closer look

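These genes and isoforms were set aside because the 2 mutants differed from each other by the direct limma test (prp39a minus smd1b on the log2 scale, adjusted p from 5.76e-08 to 0.0410). Among genes that rose in both mutants, smd1b was further from wild type in AT2G01422 (-3.22), AT3G58270 (-1.04), AT2G04460 (-1.001), ESM1 (-0.95), PUP1 (-0.79), AT1G15790 (-0.70) and RDR1 (-0.36), and prp39a was further in NOGC1 (0.73). Among genes lower in both, prp39a was further from wild type in CML38 (-1.05), SZF1 (-0.62) and TCH2 (-0.54). The SMD1B neighbours AT4G02800 (3.9999), AT4G02850 (3.67) and AT4G02820 (3.62) were further down in smd1b. CCA1 (0.53), MYB28 (-0.99) and SOT16 (-0.36) were called in the pooled test without meeting the rule for both mutants.

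Genes that moved in opposite directions differed as well. Those higher in smd1b were SADHU3-2 (-5.07), AT4G04223 (-4.19), AT5G35935 (-3.23), AT3G48131 (-2.93), AT3G23550 (-1.83) and AT3G44970 (-1.69). Those higher in prp39a were FLC (4.96), QQS (3.43), SRF4 (2.41), AT1G03165 (2.00), AT3G05640 (1.91) and AT1G50290 (1.25).

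Isoform shares that differed between the mutants were AT3G55920_ID17 (-9.83), AT5G65685.1 (-3.78), AT2G24690_P2 (-2.62), AT4G22840_P1 (-2.45), AT5G66030_P1 (-2.22), AT3G62750_P2 (-1.79) and AT4G38510.2 (2.37).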

How the results depend on the processing

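Counts moved more with single libraries than with pseudocounts. Leaving out 1 library gave 100 to 500 pooled genes (512 with all), 83 to 397 genes in both mutants (374), 377 to 1407 in smd1b (1365), 218 to 840 in prp39a (850) and 2070 to 4434 between the mutants (4336). For isoforms it gave 366 to 953 pooled (1145), 303 to 764 in both mutants (789) and 1878 to 2702 between the mutants (2978). Taking both mutants as 1 group gave 24 pooled genes and 24 in both mutants, and 59 isoforms in each case, because the difference between the mutants then counts as spread. Asking each mutant to pass its own test gave 137 genes and 158 isoforms. Same-numbered replicates showed little sign of deviating together (2 of 9 correlations over 0.1, and 3 of 18 checks best with their own number). With 3 libraries per genotype these checks cannot settle whether the numbers pair the samples. With the replicate block the counts were 231 pooled genes, 167 genes in both mutants, 832 in smd1b, 343 in prp39a, 589 pooled isoforms and 425 isoforms in both mutants; the cause was not tested. Size factors turned the pooled split from 234 higher and 278 lower to 330 and 279, and having no TPM filter gave 228 and 195. Without the TPM filter PHI-1, JAZ7, CCA1, CAF1A, RDR1, GL2, HSP17.8, SOT16, WRKY18 and AT1G14642 lost their calls, and with a pseudocount of 0.1 the named isoforms of XRN3, EMB2219, SQE2, PRP40A, RS2Z33, TCH3, RPP4 and JMJ18 (AT1G30810.1) did. No named gene or isoform changed direction under the alternatives run; of 1263 repeats of results with a call, 305 lost it and 958 kept it. TPM hide depth, so how far low genes are limited by reads is not known.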
